A study of Mus musculus with 19 samples.

Results

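The genotype by diet interaction is the question of whether the difference between SBMA and control muscle changed when the mice were fed a high-fat diet. It was measured in all 19 arrays of the series, in 4 groups: 5 arrays of CTR-NCD, 5 of AR113Q-NCD, 4 of CTR-HFD and 5 of AR113Q-HFD. All samples were quadriceps total RNA of congenic C57Bl6J male mice killed at 180 days of age; CTR mice were wild type, AR113Q mice were knock-in mice that model SBMA (spinal and bulbar muscular atrophy) through an expanded glutamine tract, and the mice were given normal chow (the diet called NCD) or food high in fat (the diet called HFD) from 40 days of age. The interaction of a gene is (AR113Q-HFD minus CTR-HFD) minus (AR113Q-NCD minus CTR-NCD) on the log2 scale, so that a value of 0 means the same genotype difference on both diets and a negative value means a lower relative level in AR113Q-HFD muscle than the other groups would give. It was tested for 24741 genes through 32026 of the 39429 probes on the array. The labels do not say whether each array held 1 mouse, and the p-values measure the spread between these arrays only. In bulk tissue, fewer cells of a type and less RNA per cell cannot be told apart.

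SBMA is one of the polyglutamine diseases, in which a CAG repeat expansion lengthens a glutamine tract in a protein. It affects males and involves both motor neurons and skeletal muscle. Quadriceps is mainly a fast-glycolytic muscle. A high-fat diet supplies fatty acids to muscle and is known to lower the synthesis of fatty acids from carbohydrate, a pathway in which citrate is cleaved to acetyl-CoA (Acly), carboxylated to malonyl-CoA (Acaca, Acacb), built into palmitate (Fasn), elongated (Elovl6) and desaturated (Scd1, Scd2). An interaction is a difference between 2 differences, and carries the error of all 4 groups.

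The lipogenic genes are described in detail further on, since 4 of them had interactions below 0 in every slide that held all 4 groups. These slides hold the same arrays as the main estimate, and the share of all genes below 0 in each of them was not counted. The regions before the transcription starts of 3 of them are shown because sterol-regulated transcription factors act on such genes through short sites near the start. The sequences are the 250 bases before the RefSeq start in GRCm38.p6, each 5′ to 3′ on the strand of the gene: Fasn chr11:120824548-120824797 (minus strand), Acly chr11:100528001-100528250 (minus strand) and Elovl6 chr3:129532136-129532385 (plus strand). Capitals mark the letters CCAAT or GGGCGG on either strand.
Fasn: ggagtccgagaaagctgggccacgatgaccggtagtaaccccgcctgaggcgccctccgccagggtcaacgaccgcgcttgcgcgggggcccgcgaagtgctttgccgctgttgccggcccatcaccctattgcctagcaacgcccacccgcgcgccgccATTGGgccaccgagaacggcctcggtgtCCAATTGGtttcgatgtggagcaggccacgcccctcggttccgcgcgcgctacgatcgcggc
Acly: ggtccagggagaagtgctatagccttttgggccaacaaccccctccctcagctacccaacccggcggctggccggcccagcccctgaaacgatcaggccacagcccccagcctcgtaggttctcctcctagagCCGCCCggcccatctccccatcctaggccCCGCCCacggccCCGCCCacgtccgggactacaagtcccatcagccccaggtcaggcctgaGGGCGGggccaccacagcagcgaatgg
Elovl6: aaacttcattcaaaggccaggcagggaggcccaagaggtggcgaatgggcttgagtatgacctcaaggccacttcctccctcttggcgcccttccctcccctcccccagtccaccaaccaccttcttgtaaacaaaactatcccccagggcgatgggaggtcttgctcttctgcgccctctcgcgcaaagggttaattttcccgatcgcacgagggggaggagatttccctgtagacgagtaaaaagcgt
The Fasn region held CCAAT letters in 3 places, of which a pair on opposite strands overlapped, and the Acly region held GGGCGG letters in 4 places. The letters CCAAT were found in 33.8% and GGGCGG in 32.7% of 32851 mouse promoter regions of the same length. The letters TCACNCCAC, 1 form of the sterol response element (1.05% of the regions), were in none of these 3 windows on either strand. Nor was the E-box CACGTG, found in 6.02%. Only these letters were searched, so other forms of either site would be missed.

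No gene passed the test for the interaction. With an adjusted p below 0.05 (limma, Benjamini-Hochberg over all probes) 0 of 32026 probes were called, and the smallest adjusted p was 0.833. With an unadjusted p below 0.05, 1489 probes or 4.65% of those tested were found, with 617 genes higher and 780 lower. With an unadjusted p below 0.01 there were 336 probes (1.05%), and under 0.001 there were 36 (0.112%). These shares were close to the thresholds themselves; fits with a term for the slide or the replicate number, given below and in the closing section, gave 7.54% and 6.73% with an unadjusted p below 0.05. Taking 1 probe per gene, 45.6% of interactions were above 0 and 54.4% below, 457 of 24741 genes (1.85%) were higher and 681 (2.75%) lower with an unadjusted p below 0.05, and the median interaction was -0.02, with the 10th and 90th percentiles at -0.32 and 0.33.

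The genotype difference itself was wide on either diet. AR113Q-NCD differed from CTR-NCD at 5625 probes (17.6%) and AR113Q-HFD from CTR-HFD at 5741 probes (17.9%), both with an adjusted p below 0.05. By genes, 8.31% were called higher and 9.04% lower in AR113Q on the NCD, and 7.74% higher and 10.2% lower on the HFD. The diet difference was called at 0 probes in CTR mice (2775 probes, 8.66%, with an unadjusted p below 0.05) and at 8 probes (0.025%) of 7 genes in AR113Q mice. Averaged over the diets, 3227 genes were higher in AR113Q and 3962 lower. In the genes that were higher, the median genotype difference was 0.33 on the NCD and 0.36 on the HFD. In the genes that were lower it was -0.37 on the NCD and -0.40 on the HFD. The median interaction of the genes that were higher was 0.03 and that of the genes that were lower -0.03. Of them 9.30% and 5.40% passed an unadjusted p under 0.05, against 4.6% of all genes. They were called from the same arrays and the same estimate of the spread, so these shares are not read as an excess.

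**Figure D1:**
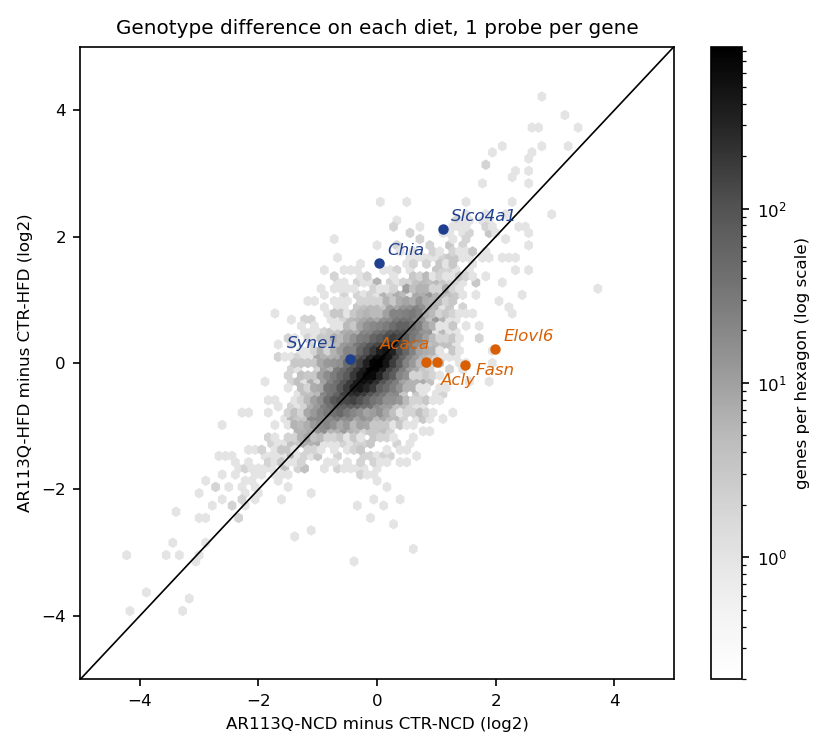
The genotype difference of each gene on the NCD (x axis, log2) against that on the HFD (y axis, log2), 1 probe for each of 24741 genes, with the shade giving the number of genes per hexagon on a log scale; the diagonal line marks an interaction of 0. Genes lay along the diagonal in both directions; Fasn, Elovl6, Acaca and Acly (orange) lay near 0 on the HFD and between 0.82 and 2.0 on the NCD, while Chia and Slco4a1 (blue) lay above the line and Syne1 (blue) moved from -0.46 to 0.07.

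The precision set what could be seen. The median standard error of the interaction was 0.215, so that its 95% interval reached 0.455 (1.37-fold) to either side. For 70.2% of the probes the whole interval lay within a 2-fold difference in either direction, and for 46.6% within 1.5-fold. Among genes with a genotype difference averaged over the diets, the interval lay within 2-fold for 89.7% of those higher and 90.7% of those lower in AR113Q. These genes were called with the same estimate of the spread, which favors genes with narrow intervals. Dim genes were the least precise: in the dimmest 10% of genes the interval reached 1.61 to either side, against 0.244 in the brightest 10%. The share of interactions below 0 also moved with the signal, from 45.9% in the dimmest 10% (median 0.06) to 64.3% in the brightest (median -0.04).

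The 5 slides, each scanned once, held 1 array of each group, except that slide 4 held no CTR-HFD array and that CTR-HFD replicate 4 was on slide 5. An interaction could therefore be formed from single arrays within slides 1, 2, 3 and 5. Its median over all genes tested was 0.02, -0.15, -0.0025 and 0.07 in these slides. A fit with a term for each slide gave 929 genes above 0 and 1347 below with an unadjusted p below 0.05 (7.54% of probes), the smallest adjusted p was 0.357, and no gene was called. The share of probes well above background had medians of 75.6% for CTR-NCD, 76.1% for AR113Q-NCD, 72.4% for CTR-HFD and 77.2% for AR113Q-HFD arrays, with overlapping ranges. The log2 75th percentile, subtracted from every probe of its array, was 9.52 to 9.75 for CTR-NCD and 9.65 to 10.05 for AR113Q-NCD. On the HFD it was 9.51 to 9.86 for CTR and 9.86 to 10.18 for AR113Q. Its part in the genotype differences was not tested. CTR-HFD replicate 3 stood apart in its slow fiber transcripts, described below, and the median of a list is given without it where it moved by more than 0.05.

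The 12 named genes with the smallest p in each direction are described next, chosen by the p of the brightest probe. Clone, transcript, accession, predicted and Rik names were left out, and the gene had to be above background on at least 10 arrays. None passed the adjustment (adjusted p = 0.833 for each of them except Masp2, 0.877), and their order in a list chosen by p is no finding. The same arrays gave the p, so groups that lie apart in these genes follow in part from the choice. The share of all genes whose groups lie apart in this way was not counted. Signals are log2 values relative to the 75th percentile of the array, in the order of the replicate numbers, and do not compare 1 gene with another.

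Most of the genes with interactions above 0 had a larger excess in AR113Q muscle on the HFD than on the NCD. Slco4a1, an organic anion transporter (probe at chr2:180209483-180209542, mm9), had the values -3.62, -3.57, -3.66, -3.15 and -3.32 for CTR-NCD, -2.0, -2.54, -2.44, -2.69 and -2.10 for AR113Q-NCD, -3.96, -4.45, -4.33 and -4.16 for CTR-HFD, and -2.01, -2.39, -1.82, -2.10 and -2.22 for AR113Q-HFD. The genotypes did not overlap on either diet, and all 4 CTR-HFD arrays were below all 5 CTR-NCD arrays. AR113Q was higher by 1.11 on the NCD (adjusted p = 6.8e-05) and by 2.11 on the HFD (adjusted p = 5.57e-07), and the interaction was 1.0 (SE 0.22, 95% interval 0.55 to 1.46, unadjusted p = 0.000248). Within the 4 slides it was 0.32, 1.03, 1.29 and 0.71.

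Klhl29, a member of the kelch-like family (chr12:5086359-5086418, mm9), had the smallest p of the genes higher (0.000113). It read -2.29, -2.11, -2.12, -2.23 and -2.11 for CTR-NCD, -1.98, -2.02, -2.06, -2.03 and -2.08 for AR113Q-NCD, -2.46, -2.49, -2.21 and -2.21 for CTR-HFD, and -1.61, -1.55, -1.41, -1.84 and -1.69 for AR113Q-HFD. Every AR113Q-HFD array was above all arrays of the other groups. The genotype difference was 0.14 on the NCD (adjusted p = 0.278) and 0.73 on the HFD (adjusted p = 2.22e-05), with an interaction of 0.59 (SE 0.12). A dimmer probe of Klhl29 gave 0.32 (SE 0.26).

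Several others had the same shape. Gga2, an adaptor for clathrin-coated vesicles of the Golgi, read 0.90, 0.89, 0.95, 0.68 and 0.96 for CTR-NCD, 1.31, 1.39, 1.06, 1.25 and 1.33 for AR113Q-NCD, 0.68, 0.77, 0.78 and 0.74 for CTR-HFD, and 1.64, 1.54, 1.62, 1.47 and 1.80 for AR113Q-HFD. The genotypes were apart on both diets, by 0.39 and 0.87, and the interaction was 0.48 (SE 0.11). Ttll1, a tubulin polyglutamylase subunit, was apart by 0.36 on the NCD and 0.81 on the HFD, both called, with an interaction of 0.46 and of 0.38 at its second probe. Cnrip1, which binds the cannabinoid receptor CB1, was higher in AR113Q by 0.28 on the NCD (adjusted p = 0.0447) and by 0.83 on the HFD (adjusted p = 2.55e-05), with an interaction of 0.55 (SE 0.14). The septin Sept10 (now Septin10) was higher by 0.62 on the HFD (adjusted p = 2.5e-05) and had a difference of 0.15 on the NCD (adjusted p = 0.176), with an interaction of 0.47.

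In another set the genotypes were alike on the NCD and apart on the HFD. Chia (now Chia1), acidic mammalian chitinase, had the largest interaction of the 12 genes higher, 1.55 (SE 0.37, 95% interval 0.76 to 2.33, unadjusted p = 0.000674). Its values were -2.29, -2.60, -1.27, -1.97 and -2.22 for CTR-NCD, -2.56, -1.63, -2.28, -2.09 and -1.65 for AR113Q-NCD, -2.13, -2.87, -3.24 and -3.17 for CTR-HFD, and -1.58, -1.14, -1.22, -1.01 and -1.43 for AR113Q-HFD. The NCD groups overlapped and the HFD groups did not. Slide 3 gave 3.03, against 0.76 to 1.17 in the other three. Ifitm10, of the interferon-induced transmembrane family, was higher in AR113Q by 0.90 on the HFD (adjusted p = 0.000961) with a difference of -0.07 on the NCD, an interaction of 0.97 (SE 0.22) and within-slide values from 0.81 to 1.18. Lrrc14 and Tmem106c were higher in AR113Q on the HFD by 0.53 and 0.38, had NCD differences of 0.08 and -0.13, and had interactions of 0.45 and 0.51.

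Syne1 and Cd27 had the reverse order, with the genotypes apart on the NCD. Syne1 encodes nesprin-1, a nuclear envelope protein that ties myonuclei to the cytoskeleton (chr10:5313453-5313512, mm9). It read 0.38, 0.49, 0.50, 0.64 and 0.59 for CTR-NCD, 0.23, 0.04, 0.04, 0.01 and -0.03 for AR113Q-NCD, 0.23, -0.07, 0.15 and 0.22 for CTR-HFD, and 0.11, 0.31, 0.19, 0.14 and 0.25 for AR113Q-HFD. CTR-NCD was above all other groups, and the other three overlapped. AR113Q was lower by -0.46 on the NCD (adjusted p = 0.000296) and differed by 0.07 on the HFD, with an interaction of 0.53 (SE 0.11); a much dimmer probe of Syne1 gave -0.35 (SE 0.41). Cd27, a lymphocyte receptor of the TNF receptor family, was lower in AR113Q by -0.90 on the NCD (adjusted p = 9.79e-05) and differed by -0.15 on the HFD (adjusted p = 0.527), with interactions of 0.76 and 1.04 at its 2 probes.

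Among the genes with interactions below 0, Kcnq1ot1, a long noncoding RNA of an imprinted region, and Amy1, an amylase, were higher in AR113Q on the NCD and not called on the HFD. Kcnq1ot1 read -0.12, -0.07, 0.04, 0.04 and 0.13 for CTR-NCD, 0.45, 0.33, 0.17, 0.61 and 0.55 for AR113Q-NCD, 0.17, 0.13, 0.14 and 0.35 for CTR-HFD, and 0.19, 0.03, -0.06, 0.18 and -0.06 for AR113Q-HFD. The NCD genotypes did not overlap, whereas the HFD groups did. Its genotype difference was 0.42 on the NCD (adjusted p = 0.0027) and -0.14 on the HFD (adjusted p = 0.349), and the interaction was -0.56 (SE 0.13, unadjusted p = 0.000392), with -0.25 (SE 0.42) at a second probe. Amy1 differed by 0.30 (adjusted p = 0.0179) and -0.22 (adjusted p = 0.0955), with an interaction of -0.52; amylase genes have close copies, whose transcripts the probe may share.

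D10Jhu81e (now Gatd3a), Coasy, Nos3 and Frat2 followed the same order. Coasy makes coenzyme A from pantothenate intermediates, and read 2.18, 2.22, 2.15, 2.08 and 2.02 for CTR-NCD, 2.45, 2.60, 2.50, 2.47 and 2.43 for AR113Q-NCD, 2.18, 2.49, 2.50 and 2.31 for CTR-HFD, and 2.28, 2.25, 2.14, 2.25 and 2.49 for AR113Q-HFD. AR113Q was above control on every NCD array and overlapped it on the HFD, and 2 probes gave interactions of -0.45 and -0.44. D10Jhu81e was bright, at 5.90 ± 0.07 for CTR-NCD, 6.21 ± 0.10 for AR113Q-NCD, 6.07 ± 0.14 for CTR-HFD and 5.94 ± 0.03 for AR113Q-HFD (SD), and its 2 probes gave interactions of -0.44 and -0.47. Nos3, the endothelial nitric oxide synthase, differed by 0.23 on the NCD (adjusted p = 0.0426) and -0.20 on the HFD (adjusted p = 0.0858); its interaction was -0.43 at the brighter probe and -0.22 (SE 0.16) at the other. Frat2, a binding partner of the kinase GSK3, had 0.33 (adjusted p = 0.0349) and -0.29 (adjusted p = 0.0796), and an interaction of -0.63 with -0.16 (SE 0.19) at a dimmer probe.

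Fabp5, a fatty acid-binding protein (chr3:10016185-10016244, mm9), differed in sign between the diets. It read 1.5, 1.75, 1.74, 1.83 and 1.67 for CTR-NCD, 1.67, 2.28, 2.27, 2.0 and 2.04 for AR113Q-NCD, 1.35, 1.92, 2.02 and 1.65 for CTR-HFD, and 1.51, 1.26, 1.20, 1.10 and 1.41 for AR113Q-HFD. AR113Q-HFD had the 3 lowest of the 19 values, and both pairs of genotypes overlapped. AR113Q was lower on the HFD by -0.44 (adjusted p = 0.0401), had a difference of 0.36 on the NCD (adjusted p = 0.0804), and the interaction was -0.80 (SE 0.20, 95% interval -1.21 to -0.38, unadjusted p = 0.000816). It was -0.01 within slide 1 and between -1.35 and -0.61 within the others.

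Rassf1, Fam160b1, Fli1 and Masp2 were called lower in AR113Q on the HFD. Rassf1, a Ras-association domain protein, read 2.36, 2.43, 2.42, 2.43 and 2.43 for CTR-NCD, 2.16, 2.24, 2.26, 2.29 and 2.26 for AR113Q-NCD, 2.63, 2.55, 2.51 and 2.75 for CTR-HFD, and 1.95, 2.12, 1.95, 2.22 and 2.04 for AR113Q-HFD. Control was above AR113Q on every array of both diets, with a difference of -0.17 on the NCD (adjusted p = 0.067), -0.55 on the HFD (adjusted p = 2.33e-05) and an interaction of -0.38 (SE 0.09). Fli1, an ETS factor of endothelial and blood cells, and Fam160b1 were lower on the HFD by -0.49 and -0.54, both called, had NCD differences of -0.02 and -0.06, and each had an interaction of -0.48. Masp2, a protease of the complement lectin pathway, was lower on both diets, by -0.49 and -1.10, with an interaction of -0.61, while its 2 dimmer probes gave -0.09 (SE 0.18) and 0.03 (SE 0.73). The olfactory receptor Olfr616 was well above background on 10 of 19 arrays, and on none of the 5 AR113Q-HFD arrays. Its value of -2.09 (SE 0.54) thus only bounds the AR113Q-HFD level. Such receptors form a large family of related genes.

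Fam171b was looked at after its values were seen, because 1 of its probes had an unadjusted p of 9.1e-05 and was also called between the diets in AR113Q mice (difference 1.03, adjusted p = 0.0272). That dim probe gave an interaction of 1.17 (SE 0.23, adjusted p = 0.833), and the brighter probe 0.86 (unadjusted p = 0.00173).

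**Figure D2:**
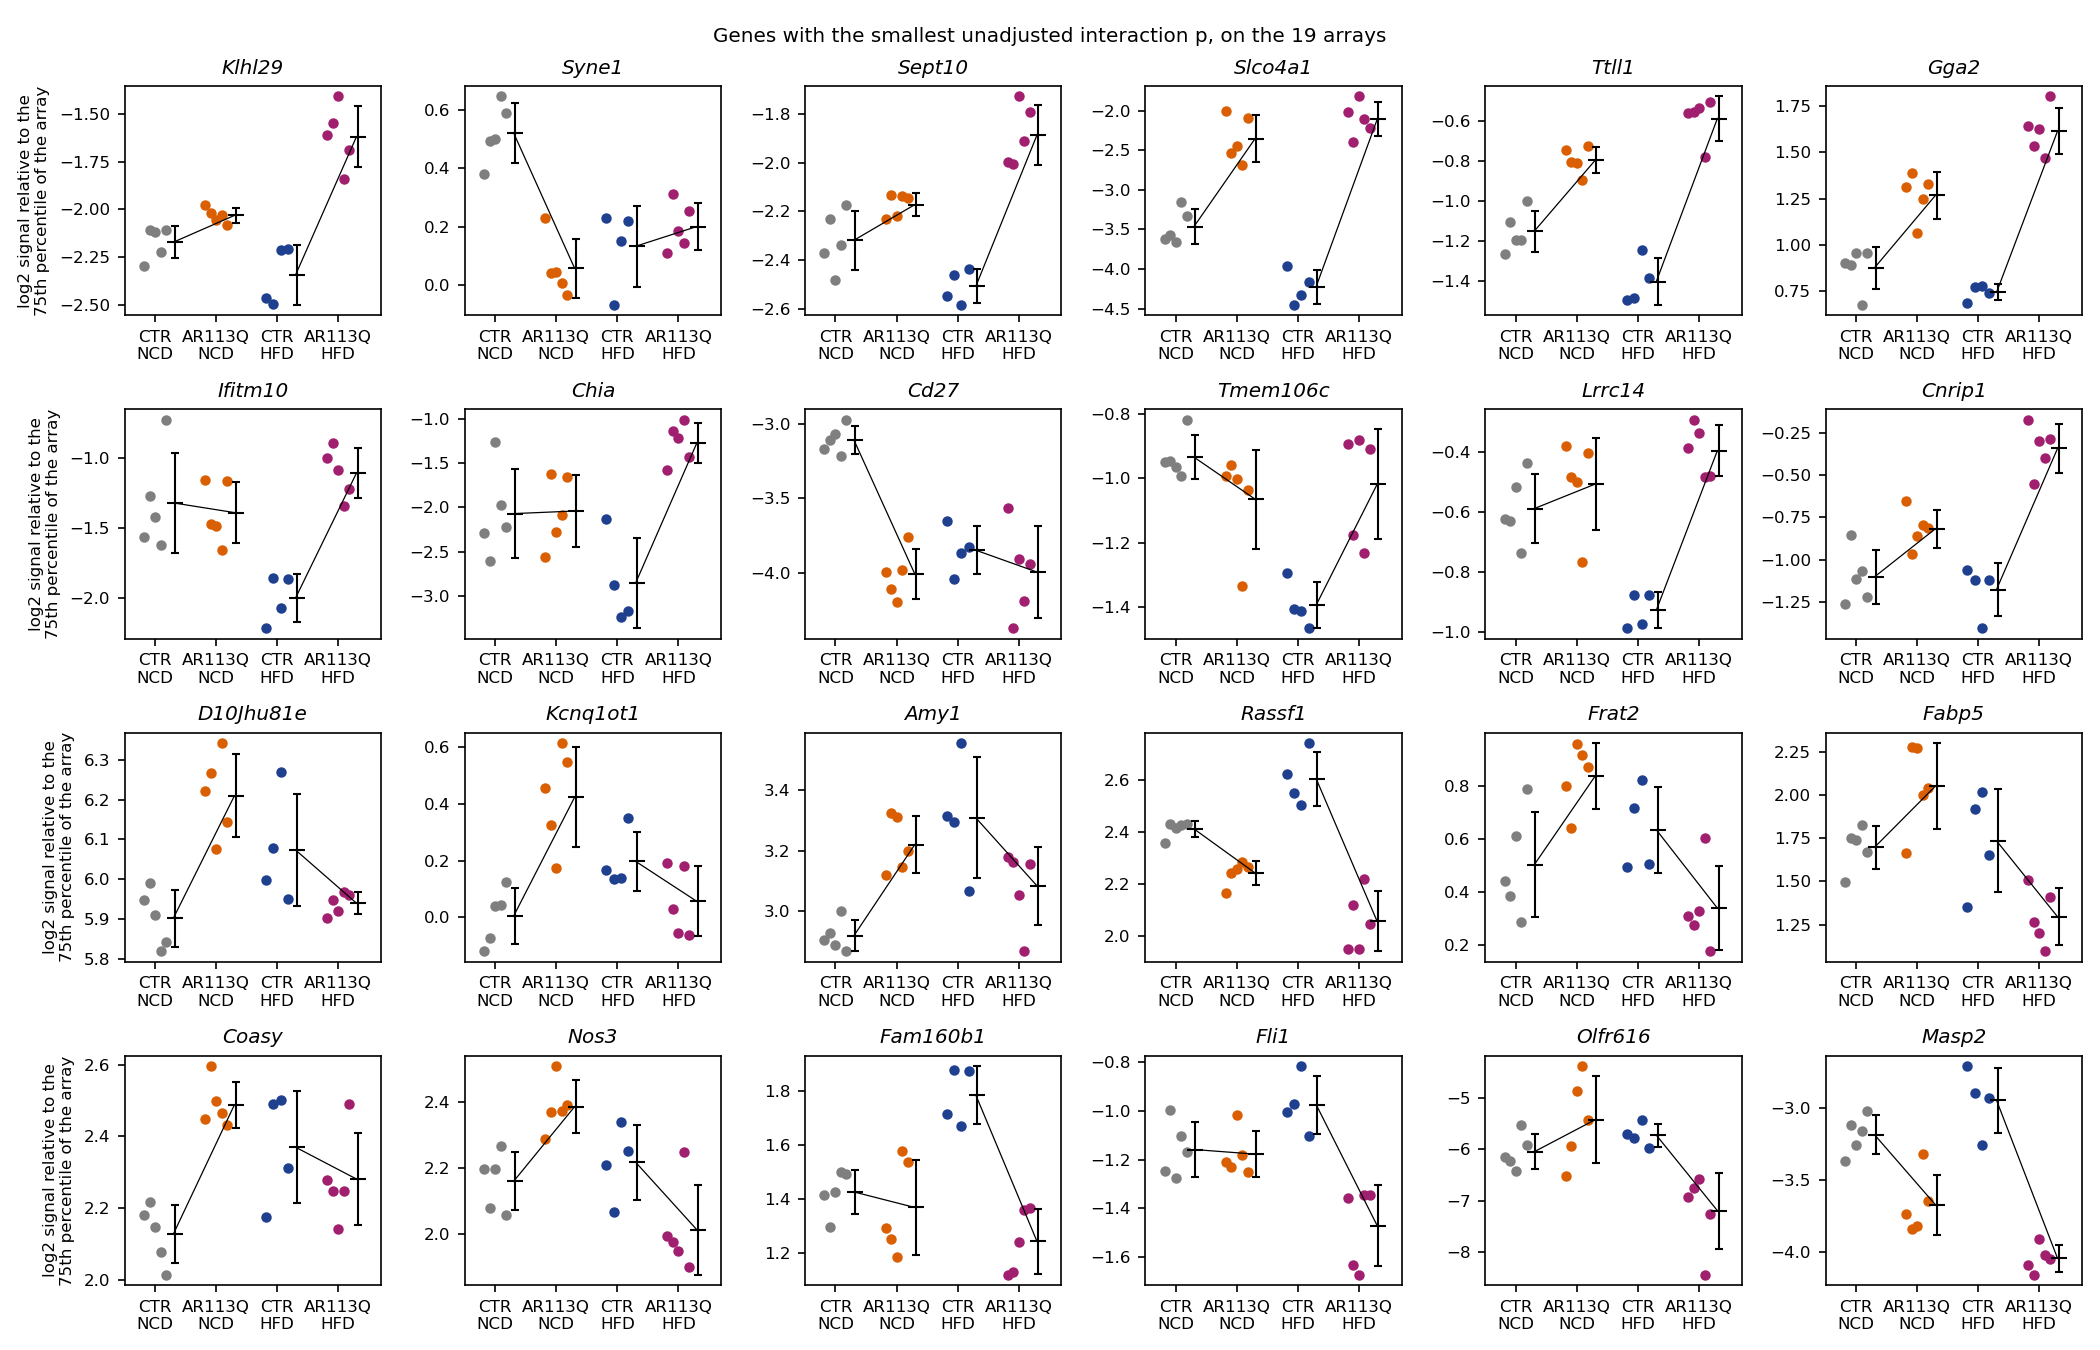
Log2 signal relative to the 75th percentile of the array (y axes) of the 24 genes with the smallest unadjusted interaction p, the upper 2 rows above 0 and the lower 2 rows below 0, with each array as a point, the mean ± SD of each group beside it, and a line joining the means of the genotypes on each diet. The 2 lines of each gene differ in slope by its interaction, which ran from 0.45 to 1.55 in the upper rows and from -2.09 to -0.38 in the lower rows; none passed the adjustment.

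Among the lipogenic enzymes, Fasn, Elovl6, Acly and Acaca were called higher in AR113Q muscle on the NCD and were not called on the HFD. Fasn, fatty acid synthase (chr11:120667666-120667725, mm9), read -2.16, -1.42, -1.59, -0.61 and -0.84 for CTR-NCD, -0.60, 1.13, 0.14, -0.41 and 0.52 for AR113Q-NCD, -3.61, -2.25, -3.3 and -2.17 for CTR-HFD, and -2.99, -2.45, -2.37, -3.59 and -2.88 for AR113Q-HFD. All 9 HFD arrays were below the lowest CTR-NCD array, AR113Q-NCD was above CTR-NCD on every array, and the HFD genotypes overlapped. AR113Q was higher by 1.48 on the NCD (adjusted p = 0.0121) and differed by -0.03 on the HFD (adjusted p = 0.977). Fasn was lower on the HFD than on the NCD in AR113Q mice, with a difference of -3.01 (adjusted p = 0.00949), and the difference in CTR mice was -1.51 (adjusted p = 0.338). The interaction was -1.51, a ratio of 0.352, with SE 0.56, a 95% interval of -2.69 to -0.33, an unadjusted p of 0.0154 and an adjusted p of 0.992.

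Elovl6, the elongase that lengthens palmitate (chr3:129341248-129341307, mm9), read -2.96, -2.05, -2.37, -1.55 and -1.36 for CTR-NCD, -0.99, 1.46, -0.33, -0.65 and 0.19 for AR113Q-NCD, -3.44, -2.95, -3.08 and -3.19 for CTR-HFD, and -2.61, -3.15, -2.93, -3.11 and -2.93 for AR113Q-HFD. AR113Q-NCD was above all other arrays, and the HFD groups lay within 1 unit of each other. The genotype difference was 2.0 on the NCD (adjusted p = 0.00112) and 0.22 on the HFD (adjusted p = 0.775), and the interaction was -1.78 (SE 0.54, 95% interval -2.92 to -0.64, unadjusted p = 0.00433, adjusted p = 0.914).

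Acly, ATP citrate lyase (chr11:100337674-100337733, mm9), read 1.67, 1.99, 1.76, 2.19 and 2.32 for CTR-NCD, 2.61, 3.85, 2.86, 2.44 and 3.22 for AR113Q-NCD, 1.5, 1.54, 1.62 and 1.88 for CTR-HFD, and 1.80, 1.57, 1.57, 1.62 and 1.68 for AR113Q-HFD. AR113Q-NCD was again the highest group on every array. Its genotype difference was 1.01 on the NCD (adjusted p = 0.00221) and 0.02 on the HFD, with an interaction of -0.99 (SE 0.30, unadjusted p = 0.00397, adjusted p = 0.914); a dim probe gave -0.48 (SE 0.37).

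Acaca, acetyl-CoA carboxylase alpha (chr11:84215093-84215152, mm9), read 1.59, 1.83, 1.84, 2.53 and 2.22 for CTR-NCD, 2.27, 3.48, 2.74, 2.49 and 3.14 for AR113Q-NCD, 1.19, 1.38, 1.45 and 1.52 for CTR-HFD, and 1.43, 1.29, 1.64, 1.14 and 1.54 for AR113Q-HFD. The NCD groups overlapped through CTR-NCD replicate 4, and the HFD groups overlapped as well. The genotype difference was 0.82 on the NCD (adjusted p = 0.0106) and 0.02 on the HFD, and the interaction was -0.80 (SE 0.30, unadjusted p = 0.0176, adjusted p = 0.999), with -0.79, -1.32 and -0.42 at the other probes.

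The 4 genes had interactions below 0 within each slide: -0.94, -2.75, -0.81 and -2.07 for Fasn, -1.14, -3.71, -1.89 and -1.30 for Elovl6, -0.64, -1.84, -1.14 and -1.10 for Acly, and -0.44, -1.74, -0.71 and -0.89 for Acaca, in slides 1, 2, 3 and 5. Slide 2 gave the lowest value in each, and holds AR113Q-NCD replicate 2, the highest array for all 4 genes; without it the interactions were -1.26 for Fasn, -1.40 for Elovl6, -0.78 for Acly and -0.63 for Acaca. With the slide as a block they were -1.46, -1.76, -0.96 and -0.79. Since the 4 genes share arrays, their agreement is not 4 independent observations. In the fit of all arrays 54.4% of all genes were below 0, and the share below 0 within every slide was not counted.

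The rest of the pathway did not follow in every member. Scd1, a stearoyl-CoA desaturase, read 2.73, 3.39, 4.07, 4.74 and 3.77 for CTR-NCD, 3.74, 4.78, 4.66, 4.73 and 4.58 for AR113Q-NCD, 0.87, 3.51, 1.51 and 3.24 for CTR-HFD, and 1.58, 2.48, 3.19, 1.21 and 1.59 for AR113Q-HFD, and its interaction of -1.03 (SE 0.74, unadjusted p = 0.18) was within the spread. Srebf1, a transcription factor that drives lipogenic genes, had the opposite order: -1.19, -0.73, -1.04, -0.74 and -0.47 for CTR-NCD, -2.37, -2.13, -2.17, -2.11 and -2.26 for AR113Q-NCD, -1.69, -1.43, -1.64 and -1.23 for CTR-HFD, and -2.59, -2.60, -2.42, -2.50 and -2.60 for AR113Q-HFD. It was lower in AR113Q on both diets, by -1.37 (adjusted p = 1.79e-06) and -1.04 (adjusted p = 2.89e-05), with an interaction of 0.33 (SE 0.17, unadjusted p = 0.0708). The citrate carrier Slc25a1 had an interaction of -0.81 (SE 0.41), and Acacb, the mitochondrial acetyl-CoA carboxylase, -0.29 (SE 0.11, unadjusted p = 0.0166). Among the others Acss2 was at -0.35, Thrsp -0.29, Elovl5 -0.24, Mlxipl -0.13, Nr1h3 -0.10, Me1 -0.07 and Pnpla3 -0.05, while Insig2 was at 0.00, Fads2 at 0.01, Scd3 at 0.10, Fads1 at 0.19, Insig1 at 0.24, Scd4 at 0.31, Aacs at 0.32 and Scd2 at 0.45, none with an unadjusted p under 0.05. In all, 14 of the 23 genes were below 0, against 54.4% of all genes, with a median of -0.10. With an unadjusted p below 0.05, 5 were below 0 and 0 above, against 2.75% and 1.85% of all genes.

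**Figure D3:**
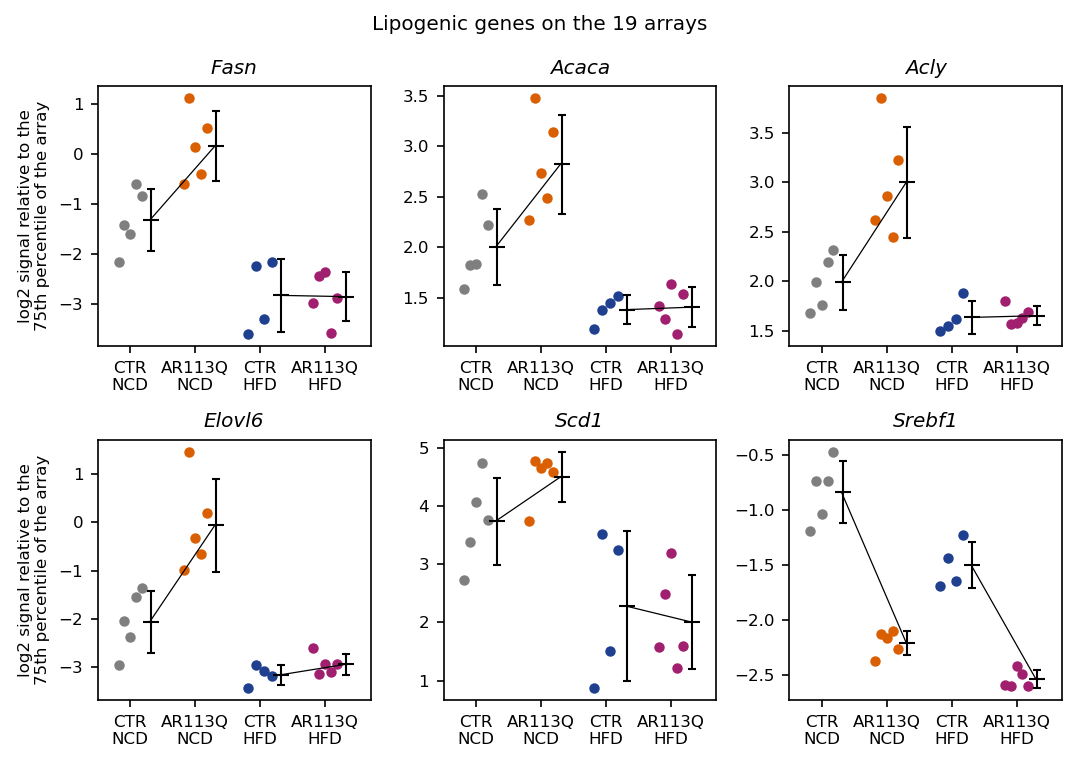
Log2 signal relative to the 75th percentile of the array (y axes) for 6 lipogenic genes on the 19 arrays, each array a point, with the mean ± SD of each group and a line joining the genotypes on each diet. For Fasn, Acaca, Acly and Elovl6 the line rises on the NCD, by 0.82 to 2.0, and is nearly flat on the HFD, whereas for Srebf1 it falls on both diets.

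Adipocytes also express these enzymes, and the white adipocyte markers were examined beside them. Of 16 markers, 12 had interactions below 0, with a median of -0.40, and none had an unadjusted p under 0.05; the markers were imprecise, with a median interval of 1.63 to either side. Their mean level ranged from 0.20 to 1.91 for CTR-NCD, 0.73 to 1.67 for AR113Q-NCD, 0.06 to 1.49 for CTR-HFD and -0.15 to 1.68 for AR113Q-HFD arrays. Adiponectin (Adipoq) had group means of 2.50, 2.61, 2.58 and 2.15 in that order, and an interaction of -0.55 (SE 0.79). Their part in the lipogenic values was not tested.

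Genes of fatty acid use lay mostly below 0 too. Of the 41 measured genes of PPAR signaling and fatty acid oxidation, 39 had interactions below 0, against 54.4% of all genes, and the median was -0.36; Cpt1a (0.15) and Ucp2 (0.15) were the exceptions. With an unadjusted p below 0.05, 8 were lower and 0 higher: Mlycd, malonyl-CoA decarboxylase (-0.43), Echs1 (-0.45) and Eci2 (-0.33) of beta-oxidation, Acsl1, which activates fatty acids (-0.52), Etfb (-0.38) and Etfdh (-0.51) of the electron-transfer flavoprotein chain, Plin2, a coat protein of lipid droplets (-0.60), and Aldh9a1 of carnitine synthesis (-0.79). Among all genes tested, 2.75% had a lower and 1.85% a higher interaction at that threshold. The median genotype difference was 0.35 on the NCD, with 8 genes called higher and 0 lower, and -0.02 on the HFD, with 1 higher and 3 lower. The shares called over all genes were 8.31% higher and 9.04% lower on the NCD, and 7.74% and 10.2% on the HFD. The value differed between slides, at -0.07, -0.26, -0.96 and 0.18 in slides 1, 2, 3 and 5, and without CTR-HFD replicate 3 the median was -0.22, with 34 of 41 below 0 and 2 genes in place of 8 lower with an unadjusted p below 0.05.

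In glycerolipid synthesis and lipolysis, 19 of 26 genes were below 0, against 54.4% of all genes, with a median of -0.14. With an unadjusted p below 0.05, 4 were lower and 0 higher, against 2.75% and 1.85% of all genes. Dgat2, which makes triglyceride from diglyceride, was at 3.78 ± 0.30 for CTR-NCD, 4.67 ± 0.28 for AR113Q-NCD, 4.17 ± 0.65 for CTR-HFD and 3.98 ± 0.32 for AR113Q-HFD (SD), higher in AR113Q by 0.89 on the NCD (adjusted p = 0.0166) and with an interaction of -1.08 (SE 0.35, unadjusted p = 0.00745). Within the slides Dgat2 ranged from -2.21 to 0.23. G0s2, an inhibitor of adipose triglyceride lipase, was higher in AR113Q by 1.09 on the NCD (adjusted p = 0.000557), with 0.40 on the HFD (adjusted p = 0.189), an interaction of -0.69 (SE 0.27) and values from -1.15 to -0.32 within the slides. Mogat2, a monoacylglycerol acyltransferase, was at -1.29 (SE 0.45) and Mgll, monoglyceride lipase, at -0.43 (SE 0.19).

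**Figure D4:**
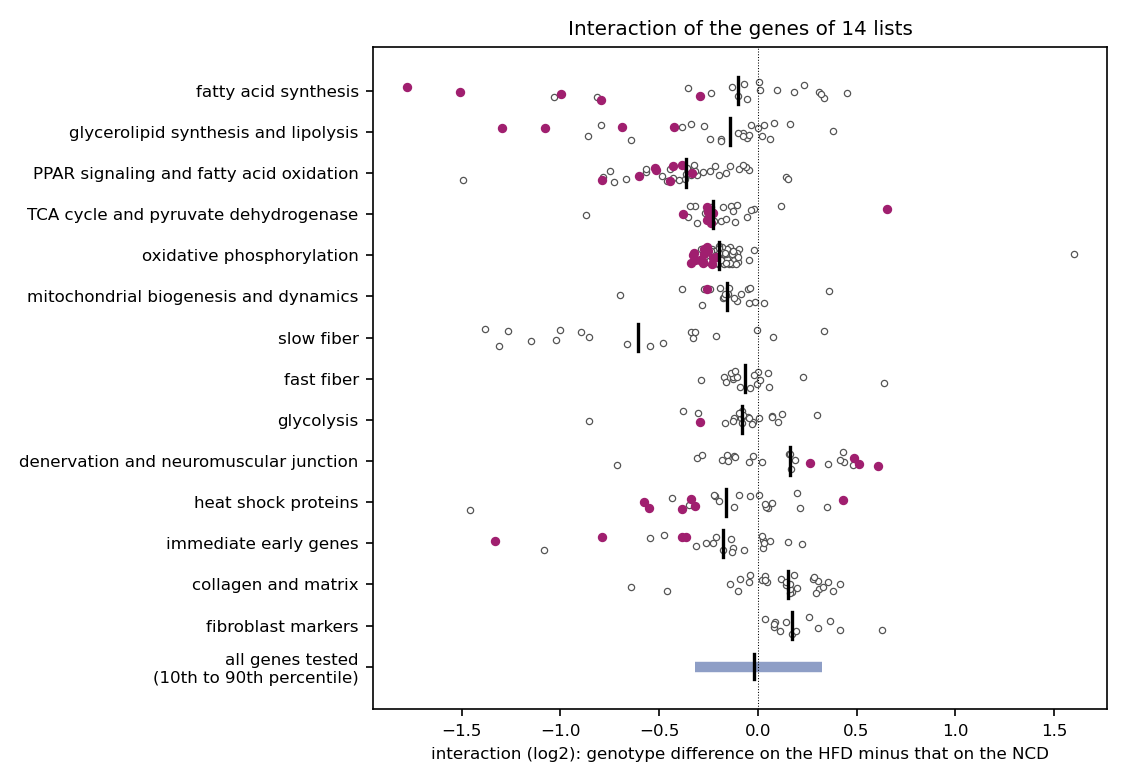
Interaction (x axis, log2) of each gene of 14 lists, as points, with filled points for an unadjusted p under 0.05 and a vertical bar for the median of the list; the lowest line gives the 10th to 90th percentile over all genes tested. The genes of oxidative phosphorylation other than Ndufa8 sit in a narrow band below 0, the fatty acid synthesis genes reach furthest to the left, to -1.78, and 13 of 13 fibroblast markers lie above 0 without any filled point.

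Most genes of mitochondrial energy production had estimates below 0, none of which passed the adjustment. For oxidative phosphorylation the direction differed between slides. Of 74 genes of oxidative phosphorylation, the subunits of the respiratory complexes and ATP synthase, 73 were below 0, the median was -0.20, and 14 were lower and 0 higher with an unadjusted p below 0.05; Ndufa8 alone was above 0, at 1.6 with SE 1.74. Among the 14 were Ndufb11 (-0.28), Ndufs3 (-0.25) and Ndufs7 (-0.26) of complex I, Uqcrfs1 (-0.33) of complex III, Cox5b (-0.32) of complex IV, and Atp5a1 (-0.34) and Atp5b (-0.23) of ATP synthase. None had an adjusted p under 0.992. The whole 95% interval lay within a 2-fold difference for 73 of 74 genes. The median genotype difference was -0.02 on the NCD, with 1 gene called higher and 2 lower, and -0.24 on the HFD, with 1 higher and 32 lower. Over all genes, 8.31% were called higher and 9.04% lower on the NCD, and 7.74% and 10.2% on the HFD. With an unadjusted p below 0.05, 2.75% of all genes had a lower interaction.

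The mean signal of these 74 genes was 6.70, 6.58, 6.62, 6.49 and 6.65 for CTR-NCD, 6.56, 6.49, 6.53, 6.64 and 6.54 for AR113Q-NCD, 6.55, 6.65, 6.85 and 6.57 for CTR-HFD, and 6.39, 6.49, 6.23, 6.46 and 6.56 for AR113Q-HFD. The NCD genotypes overlapped, and a single CTR-HFD array (replicate 3) was the highest and a single AR113Q-HFD array (replicate 3) the lowest of all; both were on slide 3. The median interaction was -0.01, -0.19, -0.55 and 0.13 in slides 1, 2, 3 and 5, with 39, 71, 74 and 15 genes below 0. Over all genes tested the median was 0.02, -0.15, -0.0025 and 0.07 in these slides. Without CTR-HFD replicate 3 the median of the list was -0.13, with 72 of 74 genes below 0 and 2 lower with an unadjusted p below 0.05. The genotype medians also moved with the scaling: with quantile normalization they were 0.11 on the NCD and -0.03 on the HFD, and the interaction -0.12.

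The TCA cycle and pyruvate dehydrogenase genes also lay mostly below 0. The shares over all genes were 54.4% below 0 and 2.75% lower with an unadjusted p below 0.05. Of 29 genes, 27 were below 0 with a median of -0.23, and 8 were lower with an unadjusted p below 0.05: the succinyl-CoA ligase subunits Suclg2 (-0.38) and Sucla2 (-0.25), Sdhc (-0.26), Idh3a (-0.23), Idh3b (-0.24), Mdh2 (-0.24), Pdhb (-0.25) and Fh1 (-0.24). Pdk3, a kinase that inhibits pyruvate dehydrogenase, was at 0.65 (SE 0.21), with 0.54 to 1.08 within the slides, and was higher in AR113Q by 0.58 on the NCD (adjusted p = 0.01) and 1.23 on the HFD (adjusted p = 3.7e-05). The list gave -0.01, -0.15, -0.58 and -0.06 in slides 1, 2, 3 and 5. In slide 2 the median of all genes tested was also -0.15. Without CTR-HFD replicate 3 the median of the list was -0.16, with 26 of 29 below 0. Then 1 gene was lower and 1 higher with an unadjusted p below 0.05. Regulators of mitochondrial biogenesis and dynamics had 20 of 22 genes below 0 and a median of -0.16, with Gabpa, a factor for nuclear-encoded mitochondrial genes, at -0.26 (unadjusted p = 0.0403). Ppargc1a, the coactivator PGC1α, was at 0.36 (SE 0.37), Tfam at -0.15 (SE 0.13), Dnm1l, of mitochondrial fission, at -0.05, and Opa1, of fusion, at -0.24 (SE 0.16) with -0.42 (SE 0.13) at a second probe.

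Brightness moved with these values, since the genes of oxidative phosphorylation had a median signal of 6.76, and in the brightest 10% of all genes the median was -0.04 with 64.3% below 0. The part of brightness in the list values was not tested.

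**Figure D5:**
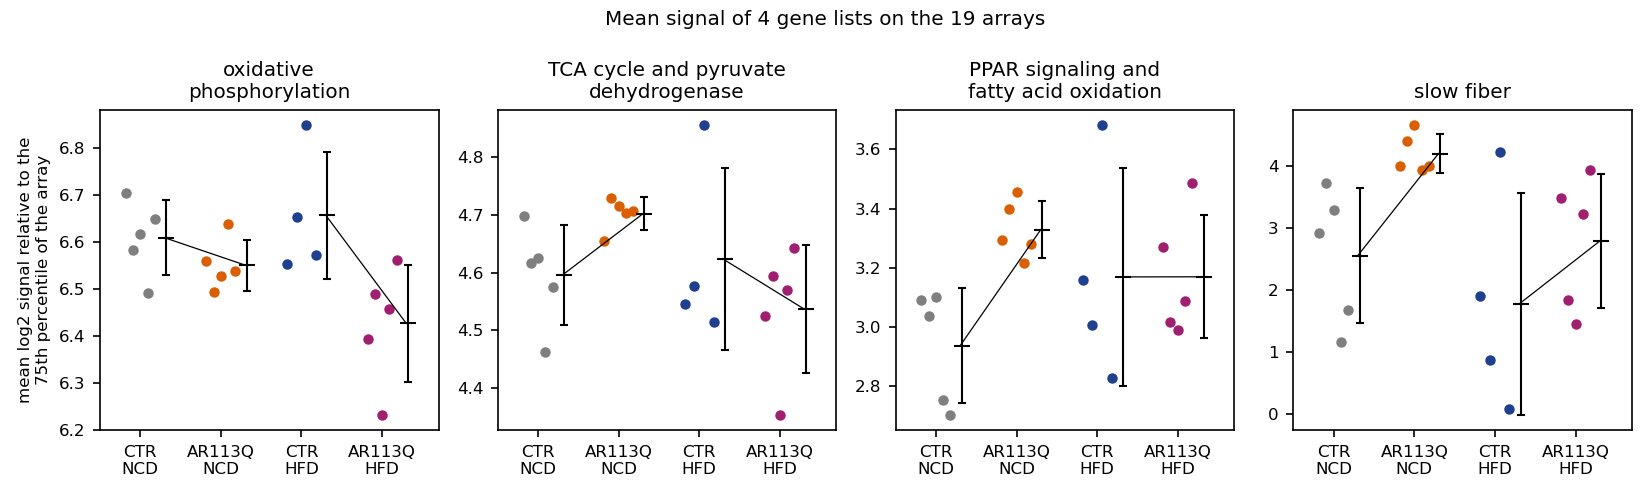
Mean log2 signal of the genes of 4 lists relative to the 75th percentile of the array (y axes), each array a point, with the mean ± SD of each group and a line joining the genotypes on each diet. For slow fiber genes 1 CTR-HFD array, at 4.23, stands above the other three, at 0.09 to 1.91; the same array is the highest of its group for the other 3 lists.

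Slow fiber genes, contractile and other proteins of oxidative type I fibers, varied most between arrays. Their mean signal was 2.93, 3.73, 3.3, 1.17 and 1.68 for CTR-NCD, 4.01, 4.40, 4.67, 3.94 and 4.0 for AR113Q-NCD, 1.91, 0.87, 4.23 and 0.09 for CTR-HFD, and 3.49, 1.85, 1.45, 3.24 and 3.94 for AR113Q-HFD. AR113Q-NCD was above CTR-NCD on every array, and the HFD groups overlapped, since CTR-HFD replicate 3 was above every AR113Q-HFD array and CTR-HFD replicate 1 was above AR113Q-HFD replicates 2 and 3. Of 18 genes, 16 were below 0, against 54.4% of all genes, with a median of -0.60 and none with an unadjusted p below 0.05. The median was 0.24 without CTR-HFD replicate 3 and -1.15 without CTR-HFD replicate 4, so that its direction turned on single arrays; within slides it was 0.38, 0.07, -3.35 and 0.94. Myh7, the slow myosin heavy chain, was at -0.66 (SE 2.20), and the slow troponins Tnni1, Tnnc1 and Tnnt1 were at -1.31 (SE 1.59), -1.38 (SE 1.46) and -0.90 (SE 1.75).

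Genes of fast fibers and glycolysis had median interactions near 0. Of 18 fast fiber genes, 16 were called lower in AR113Q on the NCD and 17 on the HFD (adjusted p below 0.05). Over all genes 9.04% and 10.2% were called lower, and 8.31% and 7.74% higher. The genotype medians of the fast fiber genes were -0.46 and -0.51. Their median interaction was -0.07 (with quantile normalization 0.01), with none with an unadjusted p below 0.05. The size of the genotype medians moved with the scaling, to -0.13 and -0.09 with quantile normalization and to -0.26 and -0.18 with the authors' values. The fast myosin Myh4 was at 8.68 ± 0.09 for CTR-NCD, 8.35 ± 0.11 for AR113Q-NCD, 8.75 ± 0.16 for CTR-HFD and 8.25 ± 0.10 for AR113Q-HFD (SD), with an interaction of -0.17 (95% interval -0.41 to 0.07). Pvalb, the calcium buffer parvalbumin, was at -0.09 (95% interval -0.33 to 0.15). Of 22 glycolysis genes, 11 were called lower and 2 higher in AR113Q on the NCD, and 10 were called lower and 3 higher on the HFD. Their genotype medians were -0.29 and -0.28, and -0.001 and -0.03 with quantile normalization. The median interaction was -0.08, with Pfkfb1 (-0.29) with an unadjusted p below 0.05. Pfkfb3, which makes the phosphofructokinase activator fructose 2,6-bisphosphate, was lower by -2.95 and -3.03 on the NCD and the HFD, with an interaction of -0.08 (95% interval -0.96 to 0.80). Pfkm, muscle phosphofructokinase, was at -0.03 (95% interval -0.25 to 0.20) and Ldha at -0.08 (95% interval -0.30 to 0.14). Of 25 genes of glycogen and sugar transport the median was -0.01, or -0.10 without CTR-HFD replicate 3, and Ugp2, which makes the glycogen precursor UDP-glucose, was at -0.47 (SE 0.13, unadjusted p = 0.00184).

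Denervation and neuromuscular junction genes had a median of 0.16, with 14 of 24 genes above 0, against 45.6% of all genes. The other 10 were below 0, down to -0.71. With an unadjusted p below 0.05, 4 were higher and 0 lower, against 1.85% and 2.75% of all genes. The median was 0.01 without CTR-HFD replicate 4, and 0.11 with 2 genes higher without CTR-HFD replicate 3. Chrna1 and Chrnb1, the alpha and beta subunits of the muscle acetylcholine receptor, were at 0.49 (SE 0.22) and 0.61 (SE 0.24), Ache, acetylcholinesterase, at 0.51 (SE 0.22) and Mef2c, a muscle transcription factor, at 0.27 (SE 0.11). Chrna1 was at 1.51 ± 0.03 for CTR-NCD, 3.01 ± 0.31 for AR113Q-NCD, 1.58 ± 0.26 for CTR-HFD and 3.58 ± 0.29 for AR113Q-HFD (SD), higher in AR113Q by 1.51 on the NCD (adjusted p = 6.17e-06) and 1.99 on the HFD (adjusted p = 1.2e-06). It was above 0 within all 4 slides, from 0.30 to 0.69. Musk, the receptor kinase that organizes the junction, and Chrng, the fetal acetylcholine receptor subunit, were each at 0.43 (SE 0.26 and 0.37). The list gave 0.21, -0.10, -0.27 and 0.25 in slides 1, 2, 3 and 5.

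Genes of mTOR signaling, which controls protein synthesis and growth, had values near 0. Mtor itself was at -0.06 (SE 0.13), Rps6kb1, S6 kinase, at -0.05 (SE 0.16) and Eif4ebp1, the translation repressor 4E-BP1, at 0.01 (SE 0.17).

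In protein turnover, the 40 genes of autophagy and the lysosome had a median of -0.04, with Map1lc3a (0.38, SE 0.12) and Sqstm1 (0.29, SE 0.11) higher and Bnip3 (-0.29, SE 0.09), Ctsb (-0.27, SE 0.10) and Gabarapl1 (-0.53, SE 0.24) lower with an unadjusted p below 0.05. Map1lc3a, an LC3 protein of the autophagosome, was higher in AR113Q on both diets, by 0.41 and 0.79. Sqstm1, the autophagy receptor p62, was lower in AR113Q by -0.22 on the NCD (adjusted p = 0.0491) and differed by 0.07 on the HFD (adjusted p = 0.617). Tfeb, a regulator of lysosomal genes, was at 0.10 (SE 0.16) and Map1lc3b at -0.01 (SE 0.09). Of 22 atrophy ligases and growth control genes the median was -0.03 with Sesn1, a stress-induced sestrin, at -0.35 (SE 0.14), and Fbxo21 and Fbxo30, ubiquitin ligase subunits, were at -0.05 (SE 0.15) and -0.11 (SE 0.15).

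Heat shock proteins had 15 of 24 genes below 0, near the 54.4% of all genes, with a median of -0.16, or -0.09 without CTR-HFD replicate 3. With an unadjusted p below 0.05 the J-domain proteins Dnaja1 (-0.55) and Dnajb1 (-0.58) and the mitochondrial chaperones Hspd1 (-0.32), Hspe1 (-0.38) and Hspa9 (-0.34) were lower and the small heat shock protein Hspb8 (0.43) was higher. Hspe1 was lower in AR113Q on the HFD by -0.50 (adjusted p = 0.0011), with -0.11 on the NCD (adjusted p = 0.449). Of 21 genes of stress response and amino acid synthesis, Hspa5 (-0.22) and Xbp1 (-0.24) of the endoplasmic reticulum were lower with an unadjusted p below 0.05, with a list median of -0.07. Of 24 antioxidant response genes Gpx1, glutathione peroxidase, was at 0.29 (SE 0.10), with a median of -0.11.

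Among signaling lists, the 23 immediate early genes had a median of -0.18, with Fos (-1.33, SE 0.54), Btg2 (-0.79), Klf6 (-0.39) and Myc (-0.36) lower with an unadjusted p below 0.05; slides 1 and 5 gave medians above 0 (0.30 and 0.18) and slides 2 and 3 below (-0.81 and -0.86). Of 20 insulin signaling genes Tbc1d4, a regulator of glucose transporter traffic, was at -0.51 (SE 0.20), with a median of -0.18, or -0.08 without CTR-HFD replicate 3. Of 19 clock genes Bhlhe41, a circadian repressor, was at 0.59 (SE 0.16, unadjusted p = 0.00217), lower in AR113Q by -0.93 on the NCD (adjusted p = 2.41e-05) with -0.35 on the HFD (adjusted p = 0.0519), and the median was 0.04, or -0.05 without CTR-HFD replicate 3. Of 17 glucocorticoid response genes the median was -0.15, with Lcn2, lipocalin 2, at 1.0 (SE 0.32) and Cebpb at -0.44 (SE 0.15). Of 24 sterol synthesis genes the median was -0.05, with Dhcr7, of the last step of cholesterol synthesis, at 0.52 (SE 0.18) and Stard4 at -0.34 (SE 0.15). Polyamine metabolism (16 genes, median -0.02) had Adc at 0.52 (SE 0.16), and interferon response genes (24 genes, median 0.05, or 0.13 without CTR-HFD replicate 3) had none with an unadjusted p below 0.05.

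Markers of other cell types differed widely in precision, and none of their genes passed the adjustment. Among all genes tested, 45.6% of interactions were above 0 and 54.4% below. Skeletal muscle markers, which define the tissue, were bright in all groups, with actin Acta1 at 9.41, 9.03, 9.44 and 8.95 and a list median of -0.02; the filament protein Des (0.37), Xirp2 (0.27) and Mef2c were higher with an unadjusted p below 0.05. All 13 fibroblast markers were above 0, with a median of 0.17 and none with an unadjusted p below 0.05, and 23 of 30 collagen and matrix genes were above 0, with a median of 0.15 and likewise none (0.31 without CTR-HFD replicate 3 and 0.02 without CTR-NCD replicate 3). The fibroblast marker mean ranged from 2.34 to 3.55 for CTR-NCD, 2.50 to 3.27 for AR113Q-NCD, 2.67 to 3.04 for CTR-HFD and 2.79 to 3.20 for AR113Q-HFD, so that all groups overlapped; with a model-based background correction its median was -0.08. Of 12 endothelial markers 10 were below 0 with a median of -0.14 and Flt1, a VEGF receptor, at -0.39 (SE 0.16), but -0.01 with 7 of 12 below 0 and no gene with an unadjusted p below 0.05 without CTR-HFD replicate 3; of 10 smooth muscle and pericyte markers Notch3 was at -0.33 (SE 0.13) and the median was -0.08, or 0.05 without CTR-HFD replicate 3. The medians were 0.07 for 19 macrophage, -0.20 for 11 lymphocyte, -0.14 for 12 Schwann cell, -0.02 for 8 red blood cell, 0.15 for 8 satellite cell and -0.18 for 10 brown adipocyte markers, with none with an unadjusted p below 0.05. Ucp1, which defines brown adipocytes, was above background on 9 of 19 arrays. Without CTR-HFD replicate 3 the medians were 0.28 for the red blood cell, -0.06 for the brown adipocyte, -0.07 for the skeletal muscle and 0.25 for the fibroblast markers. These lists were read for whether cell composition moved with the interaction, and their part in the other values was not tested.

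Of 36 genes that the study discusses by name, 27 were below 0, against 54.4% of all genes, and the median was -0.12, with -0.06 and 24 below 0 without CTR-HFD replicate 3, and -0.22 without CTR-HFD replicate 1; with an unadjusted p below 0.05, Dgat2, Fasn and Aldh9a1 were lower and Sqstm1 higher. Part of these genes were described by the study in these same arrays, and they are not read as an independent selection. Cidea, a lipid droplet protein, was at -0.80 (SE 1.04), Ppara at -0.73 (SE 0.55), the calcium pump Atp2a2 at -0.85 (SE 0.86), Hk2, hexokinase 2, at -0.38 (SE 0.22), the sugar transporters Slc2a3 and Slc2a5 at 0.56 (SE 0.44) and -0.59 (SE 0.82), and Prkag3, an AMPK subunit of glycolytic fibers, at 0.64 (SE 0.36). The 95% interval was -2.99 to 1.40 for Cidea and -2.33 to 1.14 for Slc2a5, so that an interaction of 1 unit in either direction could not be told apart from 0.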

How the data were processed

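Quadriceps RNA was labelled with Cy3 and hybridised to 1-colour Agilent arrays, 1 per sample. The authors deposited Feature Extraction 10.7.3.1 scanner files, whose processed intensity is background-subtracted by that software, and a table of 25944 log2 values per array; the authors' tools include limma, and the normalization of that table is not named in the sources used here. Here the log2 of the processed intensity was taken for 43020 spots of 39429 probes without controls and outlier spots, minus the 75th percentile of each array. A probe was kept if a share of at least 0.5 of its spots passed the software's test for well above background on 4 or more of the 19 arrays. The number of arrays limits the precision. limma 3.58.1 in R 4.3.3 fitted a mean per group over all 19 arrays, with Benjamini-Hochberg adjustment over 32026 probes, and was checked on simulated data. Genes with several probes are represented by the brightest, others being given where named. The text names the 12 genes with the smallest p in each direction. These had a gene symbol, with no clone, transcript, accession, predicted or Rik name, and were above background on at least 10 arrays. Also named are the genes discussed by the study, and members of 37 lists with an unadjusted p below 0.05. The genes, lists and contrast were chosen with earlier results of these data known. Probe positions are mm9, from the deposited files; where in a gene each probe lies was not determined here. Of 17724 genes with a RefSeq accession, 17500 were matched to current symbols, and promoter sequences are from RefSeq on GRCm38.p6. Alternatives covered 12 settings (scaling, background, filter, blocks, weights and the authors' values) and leaving out each array. The result of 1 gene and its list is not reported here.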

Additional observations from a re-analysis of the deposited data

Results flagged for a closer look

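Among 172 groups of 4 or 5 values, 10 had 1 array far from the rest by Dixon's test at its 95% level, where chance gives about 5 percent of groups, or 1 in 20. In the genes higher, Ttll1 was at -0.78 in AR113Q-HFD replicate 4 (nearest array -0.561), Gga2 at 0.676 in CTR-NCD replicate 4 (nearest 0.891) and Cnrip1 at -1.4 in CTR-HFD replicate 3 (nearest -1.12). Tmem106c was at -0.818 in CTR-NCD replicate 5 (nearest -0.947) and at -1.33 in AR113Q-NCD replicate 4 (nearest -1.04). In the genes lower, Kcnq1ot1 was at 0.351 in CTR-HFD replicate 4 (nearest 0.166), Rassf1 at 2.36 in CTR-NCD replicate 1 (nearest 2.42) and Nos3 at 2.25 in AR113Q-HFD replicate 4 (nearest 1.99). Scd1 was at 3.74 in AR113Q-NCD replicate 1 (nearest 4.58). The mean of the glycolysis genes was 4.64 in AR113Q-HFD replicate 3 (nearest 4.79).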

How the results depend on the processing

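No gene passed an adjusted p under 0.05 under any of the 12 alternatives. Against 617 genes higher and 780 lower with an unadjusted p below 0.05, median centring gave 323 and 268, the normexp background correction 383 and 542, the slide as a block 929 and 1347, and the slide as a random block 955 and 1185. The share higher was 44.2% and became 54.7% with median centring. Leaving out each array gave 473 to 741 genes higher and 609 to 961 lower. The share of probes whose interval lay within 2-fold, 70.2%, was 72.8% with quantile normalization and with median centring, 39.0% with normexp, 80.1% with the authors' values, 60.5% without a filter, 87.1% with probes above background on all arrays, 76.4% with the slide as a block, 75.1% as a random block, 66.8% on the slides with all groups, and 67.5% to 69.3% without 1 array.

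The replicate block gave 864 genes higher and 1169 lower, a share within 2-fold of 74.8%, and no call. Deviations from the group means correlated over 0.1 in 20 of 27 pairs of the same number (from -0.205 to 0.537), not in all, so the numbers were not taken as pairs. They did so in 23 of 27 pairs on the same slide (median 0.273) and 24 of 108 others, and arrays of a slide thus deviated together; the correlation of the random block was 0.239.

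Of 413 values of named genes, 2 reversed, both under normexp: Olfr616 to 0.86 and Masp2 to 0.36. Normexp put the median of all genes at 0.47, and the list medians at -0.37 for fatty acid synthesis, -0.65 for PPAR signaling and fatty acid oxidation, -0.35 for glycerolipid genes, -0.54 for the TCA cycle, -0.53 for oxidative phosphorylation, -0.37 for glycolysis, -0.40 for fast fibers and -0.44 for heat shock proteins; the cause was not tested. For 13 lists that were followed, 192 of 195 values under alternatives kept their sign. Among the lists reported here, the red blood cell markers changed sign under 7 of the 12 alternatives and polyamine metabolism under 3. Sterol synthesis, glycogen and sugar transport, the circadian clock and the skeletal muscle markers did so under 2. The fast fiber, autophagy and lysosome, lymphocyte, Schwann cell and fibroblast lists did so under 1. Intervals were wider for dim probes.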
